A study of Mus musculus with 2 samples.

Results

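Genes of the proteasome were followed in cultured mouse pericytes kept in high or in normal glucose. The members were all genes that a RefSeq accession on the array names Psma, Psmb, Psmc, Psmd, Psme or Psmg plus a number. They were 47 of 20883 named genes, covered by 58 probes. Of these, 45 were measured, that is well above background on both arrays. By role they comprised 14 genes of the constitutive 20S core, 20 of the 19S cap, 3 immunoproteasome subunits, 4 activators, 4 assembly chaperones and the 2 germ cell and thymus forms Psma8 and Psmb11.

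The cells were primary pericytes, contractile cells that wrap small vessels, taken from C57BL/6 mice, from the cavernous tissue of the penis. The high glucose group received glucose labelled 30 mmol and the normal glucose group 5 mmol, without a stated volume, for 72 h. Both groups shared a medium with fetal bovine serum, penicillin, streptomycin and human pigment epithelium-derived factor. RNA of 3 samples was pooled for each group and hybridised to 1 Agilent 1-colour array, so every difference below is between 2 pools with no replicate check, and no p-value is given. Whether the pooled samples came from separate cultures or animals is not stated in the labels. An osmotic control was not analysed here.

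The 26S proteasome degrades proteins that carry ubiquitin chains. Its barrel-shaped 20S core holds the cutting sites in beta subunits enclosed by alpha rings, and its 19S cap binds, unfolds and feeds in the substrate. Interferon induces 3 alternative beta subunits that replace the constitutive cutting subunits and form the immunoproteasome, which favours peptides suited to MHC class I. Genes of the constitutive particle are known to be induced together by the transcription factor Nfe2l1 when proteasome activity is blocked.

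Signal stood clear of background for 57.6% of the 59305 gene spots in high glucose and for 56.3% in normal glucose, and 0 spots were saturated. Of the pericyte markers, 9 of 10 were measured, among them Pdgfrb, with a signal of 18161 in high and 17471 in normal glucose, a log2 ratio of 0.14 by the scaling given below. The list was mixed, with 5 genes lower and 4 higher in high glucose and a median of -0.097, from -0.45 (Abcc9) to 0.58 (Rgs5), both dim. Its summed signal was 108820 in high and 118567 in normal glucose. Kcnj8 was at background on both. Of 11 immune markers 9 were measured, from Ptprc (CD45), with 42.5 in high and 39.1 in normal glucose, to Itgam, with 22557 and 21959 in the same order, so the markers do not identify the cells alone. Of 7 endothelial markers 3 were measured. Kdr was bright, with 7075 in high and 7379 in normal glucose, most of the list's summed signal of 7252 and 7576. Pecam1 and Vwf were dim.

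No measured proteasome gene differed by 1.2-fold between the pools. The count was 0 of 45 higher and 0 of 45 lower in high glucose, where 6.82% of all 14174 measured genes were at least 1.2-fold higher and 5.49% lower. Proteasome probes are bright, and bright probes vary less. Among the 8146 genes with a signal of at least 1000, which 42 of the 45 reach, the shares were 2.21% and 1.28%, or 3.49% in either direction (12.3% of all measured genes), so a count of 0 lies near this background. In such bulk RNA, fewer cells of a type and less RNA per cell cannot be told apart.

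Processed signals of the measured members lay between 301 and 131769. Each value below is the scanner's processed signal, a linear intensity, and each log2 ratio is high over normal glucose after each array was divided by its 75th percentile. That percentile was 732 in high and 774 in normal glucose, which adds 0.08 to every raw log2 ratio. Signals of different probes are not compared with each other, since probes differ in brightness.

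**Figure D1:**
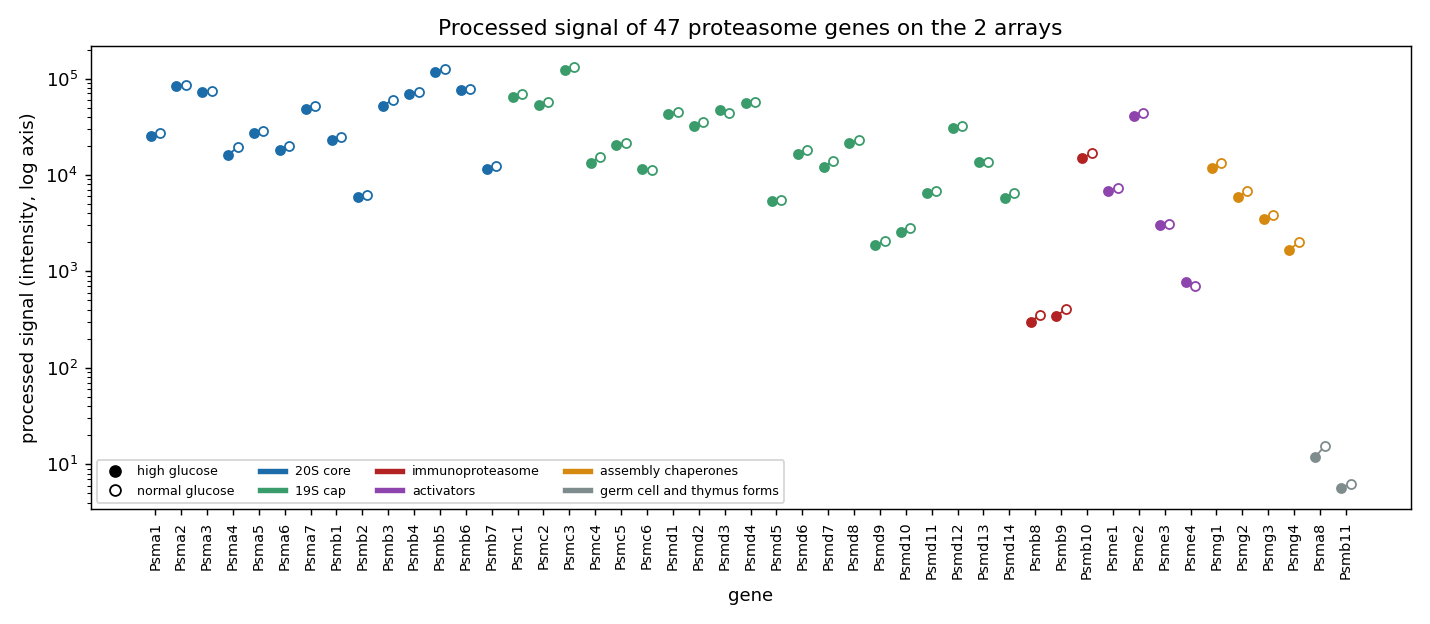
Processed signal (vertical axis, intensity, log scale) of the 47 proteasome genes, filled points for the high glucose array and open points for the normal glucose array, coloured by class. The points of a gene lie close together, from 301 and 353 for Psmb8 to 122096 and 131769 for Psmc3 in high and normal glucose among the 45 measured genes, while Psma8 and Psmb11 lie at background.

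The log2 ratios of the 45 members had a median of -0.030 and ran from -0.19 (Psmg4) to 0.22 (Psme4). Over all measured genes the median was -0.0069. The SD of the ratio was 0.083 across the members, 0.24 across all measured genes and 0.13 across genes with a signal of at least 1000. The 42 members with such a signal had an SD of 0.073. With each array centred on its median in place of its 75th percentile, the median of the members was -0.091 and that of all genes -0.068, so most of their shift below 0 under that scaling is shared with the whole array.

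In high glucose 28 of 45 members (62.2%) had a ratio below 0, against 53.0% of all measured genes and 54.9% of those with a signal of at least 1000. With median centring 41 of 45 members did, against 72.7% and 79.7%. Differences of at least 0.1 on the log2 scale were seen in 9 members on the lower side, against 20.4% of all measured genes, and in 3 on the higher side, against 19.5%. Among genes with a signal of at least 1000, 13.5% and 12.0% were that far lower and higher. The 9 were Psmg4, Psma4, Psmb8, Psmb9, Psmb3, Psmc4, Psmg2, Psmd14 and Psmd7, and the 3 were Psme4, Psmd3 and Psmc6.

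Error within an array could be read from probes printed several times. Spots of the same probe differed in log2 ratio with an SD, at the median, of 0.030 for probes above 10000, where 31 members lie. It was 0.039 from 1000 to 10000, with 11 members, and 0.089 from 100 to 1000, with Psmb8, Psmb9 and Psme4. By this measure 15 of 45 members differed by more than 2 spot SDs. The share of all measured genes past the same limit was not counted, so this number is not read as a trait of the family. The scanner software gives a larger error, which amounts to at least 0.204 on the log2 ratio of every member, and only Psme4 exceeded its own value of 0.205. Neither error includes the spread between cultures, which 1 pool a group does not show.

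**Figure D2:**
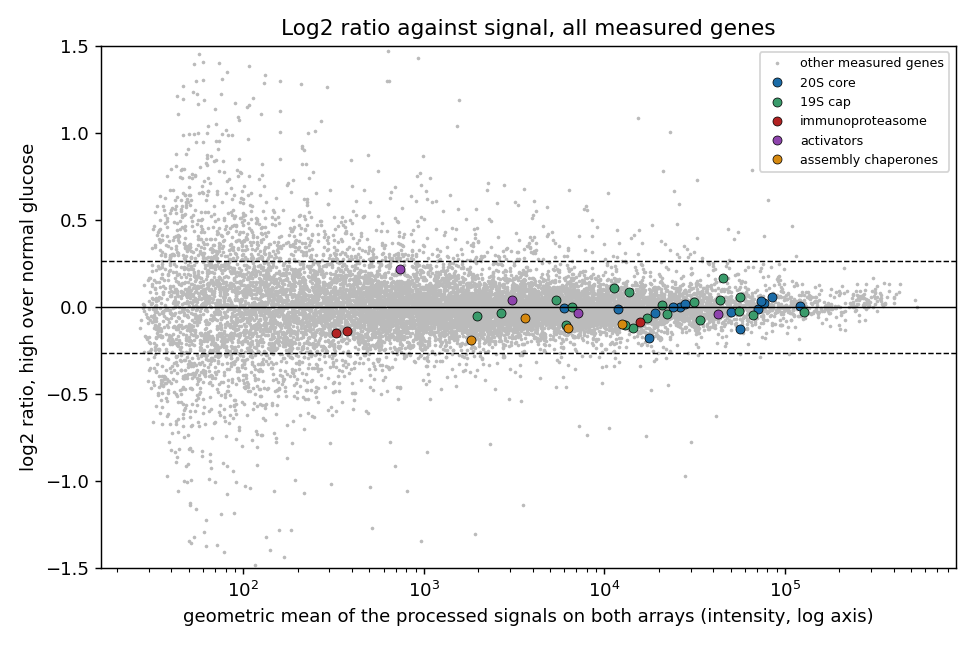
Log2 ratio of high over normal glucose (vertical axis) against the geometric mean of the signals on both arrays (horizontal axis, intensity, log scale) for all measured genes, with the proteasome genes coloured by class and dashed lines at 1.2-fold. The grey cloud narrows as the signal rises, and all 45 coloured points lie between the dashed lines; genes beyond 1.5 on either side are not drawn.

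Scaled to the 75th percentile, the 20S core was nearly level between the pools. Its 14 genes had a median log2 ratio of -0.0032, with 8 lower and 6 higher in high glucose. Within 0.1 of 0 were 12 of the 14 (85.7%), against 60.2% of all measured genes and 74.5% of those with a signal of at least 1000. With 14 genes this lies near the share of the bright genes, so it is not read as a trait of the core. Both rings had medians near 0 under this scaling: the 7 alpha genes, which form the gate and the outer walls, had -0.0013 and the 7 beta genes -0.0051. The medians of the core and of each ring turned above 0, by less than 0.01, when the percentile was taken over detected probes alone. With median centring they were -0.064 for the core, -0.063 for the alpha ring and -0.066 for the beta ring, where that of all genes was -0.068. How level the core appears thus depends on the scaling.

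The constitutive cutting subunits lay close to 0. Psmb5, which carries the chymotrypsin-like activity, had a signal of 117865 in high and 124251 in normal glucose, a log2 ratio of 0.0042. Its second probe, with 18812 in high and 21111 in normal glucose, gave -0.086. Psmb6, the caspase-like subunit, had 75519 in high and 78558 in normal glucose and a log2 ratio of 0.023. For Psmb7, the trypsin-like subunit, the signals were 11526 in high and 12280 in normal glucose and the log2 ratio was -0.011. The disagreement between the probes of Psmb5 is larger than any of these 3 ratios, so none of them shows a direction.

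At the lower edge of the core stood Psma4, an alpha subunit, with 16162 in high and 19361 in normal glucose. It was 1.13-fold lower in high glucose, a log2 ratio of -0.18, and its second probe, with 8299 in high and 10091 in normal glucose, gave -0.20. Its ratio lay between -0.24 and -0.16 under all settings tried. Of the 11 members with a second probe, Psma4 had the largest difference that both probes showed. Psmb3, a structural beta subunit with 1 probe, had 52408 in high and 60524 in normal glucose, a log2 ratio of -0.13.

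At the upper edge stood Psma2, with 84025 in high and 85442 in normal glucose and a log2 ratio of 0.056. The remaining core genes had ratios from -0.034 (Psma6) to 0.032 (Psma3). Alpha and beta subunits enter each 20S particle in equal number. Psma4 and Psma2 differed from each other in ratio by more than the spot error of probes as bright as these. They were picked as the lowest and highest of the core, so this gap is not read as a result.

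**Figure D3:**
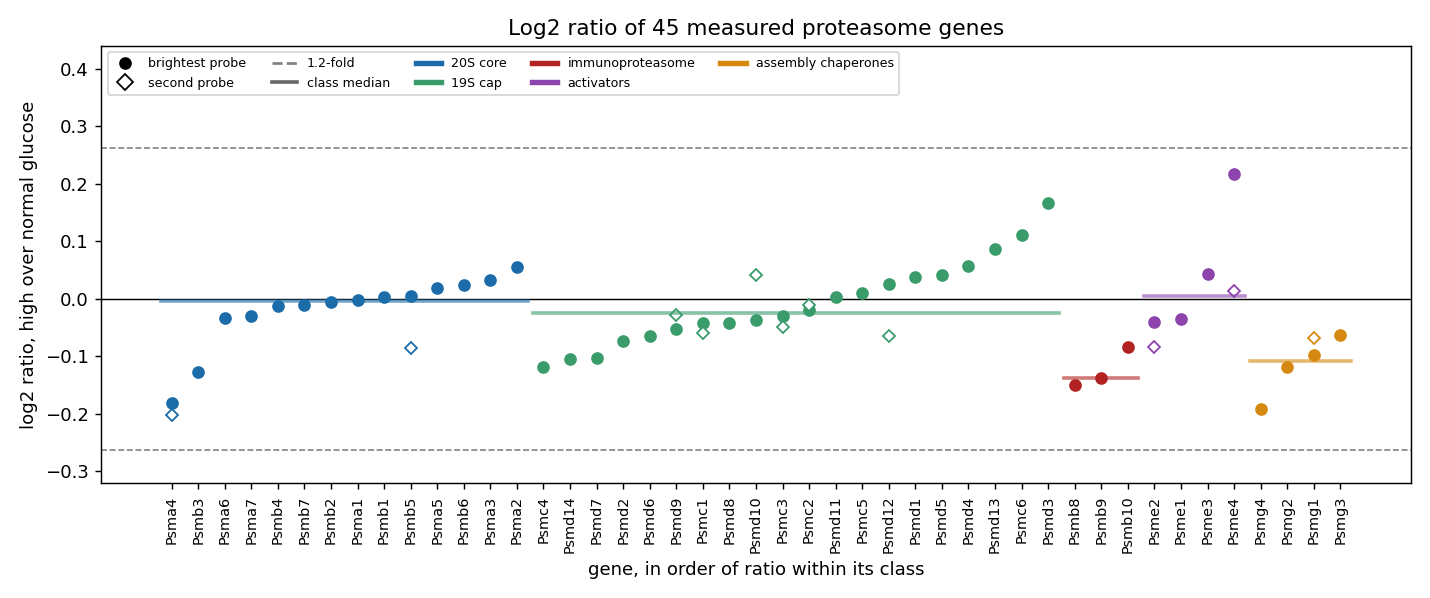
Log2 ratio of high over normal glucose (vertical axis) for the 45 measured proteasome genes, ordered within each class; circles are the brightest probe, open diamonds the second probe of the 11 genes that have one, bars the class medians, dashed lines 1.2-fold. The 20S core and 19S cap scatter around 0, while the 3 immunoproteasome genes and the 4 assembly chaperones all lie below it; for Psme4 the circle is at 0.22 and the diamond at 0.013.

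The 19S cap had 11 genes lower and 9 higher in high glucose, with a median of -0.025 over 20 genes. The 6 ATPases of its base, which unfold the substrate, had a median of -0.025. Psmc4 was lowest of all cap genes, with 13441 in high and 15431 in normal glucose and a log2 ratio of -0.12. Psmc6 went the other way, with 11479 in high and 11234 in normal glucose and a ratio of 0.11. The 6 ATPases form a single ring, and no common direction was seen among them. Psmc1, Psmc2 and Psmc3 each had a second probe, and all 6 of their ratios lay between -0.059 and -0.010.

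The 3 other base genes, Psmd1, Psmd2 and the ubiquitin receptor Psmd4, had ratios of 0.039, -0.073 and 0.057. The 8 measured lid genes had a median of -0.020, with 4 lower and 4 higher. Psmd3, a scaffold subunit of the lid, had the highest ratio of the cap. Its signal was 46866 in high and 44116 in normal glucose, 1.12-fold higher in high glucose (log2 ratio 0.17), from 1 probe. It stayed above 0 under all settings tried, between 0.11 and 0.21. Psmd14, the deubiquitinase that removes the chain before degradation, had 5783 in high and 6575 in normal glucose, a ratio of -0.10, and Psmd7, its partner in the lid, had 12201 and 13860, a ratio also of -0.10. So the lid held the cap's highest gene beside 2 of its 3 lowest.

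Psmd5, Psmd9 and Psmd10, which help to assemble the cap base, had ratios of 0.041, -0.052 and -0.036. The second probe of Psmd10 had the opposite sign, at 0.042.

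All 3 immunoproteasome genes were slightly lower in high glucose, by less than 1.2-fold. Their median log2 ratio was -0.14, and it lay between -0.20 and -0.084 under the settings tried. Psmb8 had a signal of 301 in high and 353 in normal glucose, a ratio of -0.15. Psmb9 had 348 in high and 404 in normal glucose, a ratio of -0.14. Psmb10, with a much brighter probe, had 14955 in high and 16760 in normal glucose, a ratio of -0.084. Each is below its constitutive counterpart in ratio, and the 2 largest of these values rest on the dimmest probes of the family.

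Set against the subunits they replace, Psmb8 minus Psmb5 was -0.15, Psmb9 minus Psmb6 was -0.16 and Psmb10 minus Psmb7 was -0.073, a mean of -0.13. This difference does not depend on the scaling factor of an array, which cancels in it. It lay between -0.14 and -0.073 under the settings tried, the smaller size being that of Psmb10 alone, once dim genes were left out. The spot SD for probes as dim as Psmb8 and Psmb9 is 0.089, so each of these 2 ratios is less than 2 such SDs from 0. No second probe was available for any of the 3 immunoproteasome genes. The second probe of the counterpart Psmb5 gave -0.086, nearer to Psmb8 than its brightest probe, so the size of that difference depends on the probe. Immune cells carry immunoproteasomes as a rule, and the immune markers were mixed, with 7 of 9 measured genes higher, 2 lower and a median ratio of 0.12. The summed signal was 30641 in high and 29658 in normal glucose, most of it from Itgam, whose second, dim probe gave -0.22. The lower genes were H2-Ab1, at -0.060, and Cd74, at -1.60 from a dim 27.9 in high and 89.2 in normal glucose. H2-Aa was at background on both arrays. The part of such cells in the result was not tested.

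Promoter windows of 5 members are shown because these genes hold the lowest or highest ratios: Psmb9 and Psmb8 of the immunoproteasome, Psma4 of the core, Psmg4 of the chaperones and Psme4 of the activators. Each runs 5′ to 3′ on the gene's strand, from 250 bases before to 50 after the start that RefSeq gives on GRCm38.p6, at chr17:34187281-34187580 (minus strand) for Psmb9, chr17:34197945-34198244 (plus) for Psmb8, chr9:54950609-54950908 (plus) for Psma4, chr13:34162714-34163013 (plus) for Psmg4 and chr11:30771525-30771824 (plus) for Psme4. Capitals mark a match on either strand to the antioxidant response element core TGACNNNGC, which Nfe2l1 and Nfe2l2 bind, to the NF-Y box CCAAT or to the interferon-stimulated response element, in which 2 copies of GAAA stand 2 bases apart.
Psmb9: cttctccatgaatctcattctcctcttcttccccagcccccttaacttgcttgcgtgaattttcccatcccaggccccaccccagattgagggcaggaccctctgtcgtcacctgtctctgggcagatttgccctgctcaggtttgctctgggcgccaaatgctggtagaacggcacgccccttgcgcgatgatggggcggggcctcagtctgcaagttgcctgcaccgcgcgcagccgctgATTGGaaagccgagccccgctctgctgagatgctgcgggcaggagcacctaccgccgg
Psmb8: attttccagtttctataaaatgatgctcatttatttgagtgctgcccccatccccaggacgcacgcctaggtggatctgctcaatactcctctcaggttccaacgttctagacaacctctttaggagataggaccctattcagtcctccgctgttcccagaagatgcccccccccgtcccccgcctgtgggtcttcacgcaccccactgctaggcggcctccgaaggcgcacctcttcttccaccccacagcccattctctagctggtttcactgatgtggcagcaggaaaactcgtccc
Psma4: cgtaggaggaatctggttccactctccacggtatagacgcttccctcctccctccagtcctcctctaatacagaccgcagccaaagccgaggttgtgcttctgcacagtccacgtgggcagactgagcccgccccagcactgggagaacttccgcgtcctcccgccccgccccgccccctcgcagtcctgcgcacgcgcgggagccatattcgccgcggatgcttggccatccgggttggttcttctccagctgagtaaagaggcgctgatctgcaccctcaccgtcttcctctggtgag
Psmg4: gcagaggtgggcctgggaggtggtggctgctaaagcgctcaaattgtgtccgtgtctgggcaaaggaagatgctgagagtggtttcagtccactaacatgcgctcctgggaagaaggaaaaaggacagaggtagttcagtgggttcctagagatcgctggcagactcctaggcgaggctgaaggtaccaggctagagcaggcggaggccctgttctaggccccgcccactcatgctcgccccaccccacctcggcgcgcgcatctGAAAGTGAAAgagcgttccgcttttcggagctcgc
Psme4: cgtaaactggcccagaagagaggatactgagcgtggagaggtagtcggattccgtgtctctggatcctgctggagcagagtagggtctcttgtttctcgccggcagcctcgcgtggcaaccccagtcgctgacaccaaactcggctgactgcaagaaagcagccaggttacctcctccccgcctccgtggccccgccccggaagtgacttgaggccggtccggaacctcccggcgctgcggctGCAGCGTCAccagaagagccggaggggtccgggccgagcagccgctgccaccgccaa
The Psmb9 window holds an NF-Y box, read on the opposite strand, and shares 275 of its 300 bases with the window of Tap1, the peptide transporter gene that runs the other way from the same stretch. The Psmg4 window holds an interferon-stimulated response element, that of Psme4 an antioxidant element and those of Psmb8 and Psma4 none of the 3.

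These matches are letters in a window and were not tied to the ratios. RefSeq windows were available for 39 of the 47 members, 42 windows in all. The antioxidant core was in 6 of them (14.3%), against 12.4% of all 32851 windows of the same length, and the NF-Y box in 14 (33.3%), against 37.4%. The interferon-stimulated element was in 5 (11.9%), against 3.44%. The 5 genes with this element were Psmb3, Psmd4, Psmd9, Psme1 and Psmg4, with log2 ratios of -0.13, 0.057, -0.052, -0.034 and -0.19.

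The activators open the core without ubiquitin or ATP, and their 4 genes did not share a direction: 2 were higher and 2 lower, with a median of 0.0043 that became -0.057 with median centring. Psme1 and Psme2, the interferon-inducible subunits of the PA28 ring, had ratios of -0.034 and -0.041. Psme1 was measured in 9 spots, with mean signals of 6842 in high and 7406 in normal glucose and an SD of 0.039 between spots. Psme2 had 40794 in high and 44370 in normal glucose, a second probe giving -0.083. By their brightest probes the PA28 genes, which interferon induces together with the immunoproteasome, stood nearer to 0 than Psmb8, Psmb9 and Psmb10 did. The second probe of Psme2 was level with Psmb10, at -0.084, and Psmb8 and Psmb9 rest on dim probes.

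Psme3, the nuclear PA28 form, had 3054 in high and 3134 in normal glucose and a ratio of 0.043. Psme4, which encodes PA200, an activator found in the nucleus and in male germ cells, had the highest ratio of the whole family. Its brighter probe had 771 in high and 701 in normal glucose, 1.16-fold higher in high glucose (log2 ratio 0.22). Its second probe had 349 in high and 366 in normal glucose, a ratio of 0.013. The 2 probes differ by 0.20, the largest disagreement among the 11 members with a second probe, so the difference was not shown by both.

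Across those 11 members, the ratios of both probes had the same sign in 8 and differed by a median of 0.030. The second probes had a median of -0.059 and were below 0 in 9 of 11, where the brighter probes of the same genes had a median of -0.036.

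The 4 chaperones that assemble the core, Psmg1 to Psmg4, were all slightly lower in high glucose. They work as pairs that build the alpha ring before the beta subunits join. Their median log2 ratio was -0.11, and it lay between -0.17 and -0.068 under the settings tried. Psmg4 had the lowest ratio of the family, with 1669 in high and 2014 in normal glucose, 1.14-fold lower (log2 ratio -0.19). Psmg2 had 5873 in high and 6740 in normal glucose, a ratio of -0.12. Psmg1 had 11760 in high and 13310 in normal glucose, a ratio of -0.098, with -0.068 from another probe. Psmg3 had 3458 in high and 3817 in normal glucose, a ratio of -0.062. Each of the 4 was below 0 under all settings tried, as were the 3 immunoproteasome genes, and none reached 1.2-fold in any of them. Genes of other classes, such as Psma4 and Psmb3, did so too, and 25 of the 45 members were below 0 in all settings that gave them a value. The share of all measured genes that did so was not counted, so this number is not read as a trait of the family or of these classes.

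Psma8, the alpha subunit of male germ cells, and Psmb11, the beta subunit of the thymic cortex, were not well above background. Psma8 had a signal of 11.9 in high and 15.5 in normal glucose and Psmb11 5.69 in high and 6.31 in normal glucose, so no ratio is read for them.

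Genes that work with the proteasome were taken from lists chosen for their roles, with 75 of 77 array genes measured. Partner components and inhibitors had a median of 0.0086 over 13 genes (-0.053 with median centring), with 0 higher and 1 lower by 1.2-fold. Pomp, which finishes core assembly, was chosen after its values were seen. It had 45673 in high and 51153 in normal glucose, a ratio of -0.083, with -0.12 from another probe. Of the 13 genes in its list 7 were higher and 6 lower in high glucose, so the sign of Pomp is not read as a result.

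Regulators of proteasome genes had a median of -0.029 over 10 genes. The 1 gene past 1.2-fold was Ngly1, the deglycosylase that activates Nfe2l1, with 108 in high and 153 in normal glucose and a ratio of -0.42 from a dim probe. Nfe2l1 itself had 1219 in high and 1327 in normal glucose, a ratio of -0.043, and Nfe2l2 had 23631 and 25383, a ratio of -0.023; these 2 were added after their values were seen. Both ratios lay within 0.1 of 0, as did those of 60.2% of all measured genes.

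Ubiquitin genes and the E1 enzymes that charge ubiquitin had a median of 0.0031 over 6 genes and 0 past 1.2-fold. Uba1, the main E1 enzyme, had 75295 in high and 78043 in normal glucose, a ratio of 0.029. The p97 unfoldase and its cofactors had a median of -0.025 over 9 genes, again with 0 past 1.2-fold. Ubxn4, a membrane cofactor, had -0.23 from signals of 218 in high and 270 in normal glucose, and Ufd1, a substrate adaptor, 0.11, with -0.086 by its second probe.

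Genes of the response to damaged protein had a median of 0.043 over 9 genes, which was -0.018 with median centring. Those past 1.2-fold were Hmox1, haem oxygenase 1, with 97417 in high and 11703 in normal glucose, a ratio of 3.14, and Hspa1a, an inducible Hsp70 chaperone, with 869 in high and 688 in normal glucose, a ratio of 0.42 from 1 probe. The proteasome genes did not share the size of either difference.

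**Figure D4:**
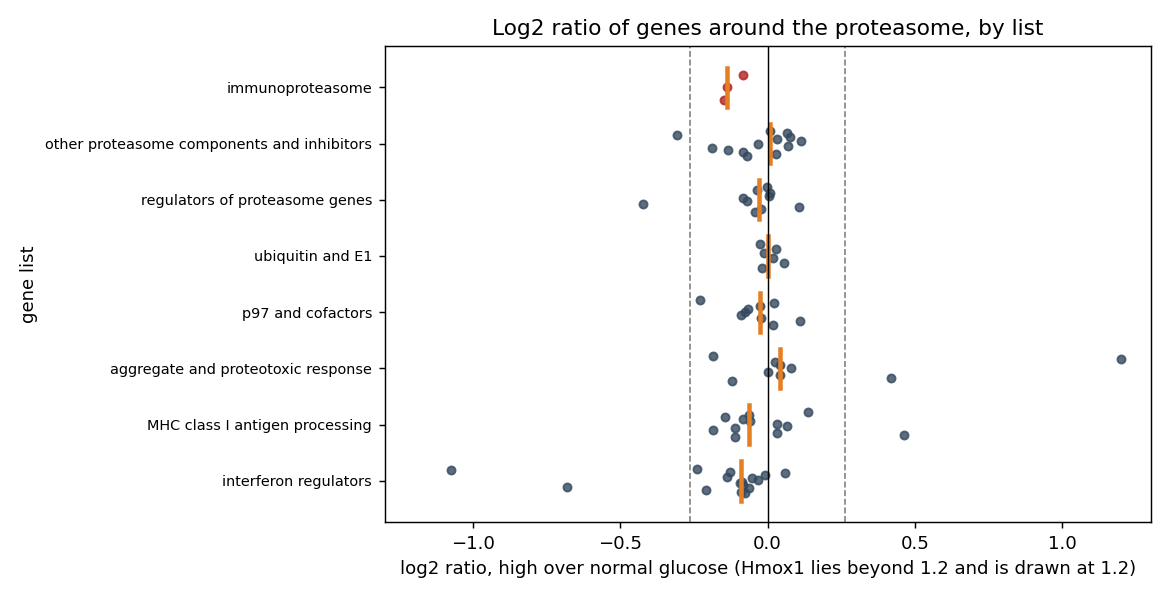
Log2 ratio of high over normal glucose (horizontal axis) of the measured genes in each list (vertical axis), with the immunoproteasome at the top, orange bars at list medians and dashed lines at 1.2-fold. Most points lie between the dashed lines; Hmox1, at 3.14, is drawn at 1.2, Tap2 lies at 0.46 and Rsad2 at -1.08.

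Genes of MHC class I antigen processing, which take up proteasome products, had a median of -0.063 over 12 genes, with 7 lower and 5 higher, and 0.032 over genes brighter than the median gene. Tap2, a subunit of the peptide transporter, was the 1 gene past 1.2-fold, with 10390 in high and 7970 in normal glucose and a ratio of 0.46 from 1 probe. Its partner Tap1, which shares the Psmb9 window above, had 210 in high and 239 in normal glucose and a ratio of -0.11. So Tap2 stood apart in direction from Tap1, Psmb8 and Psmb9, its neighbours in the MHC region.

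Interferon receptors, regulators and targets had a median of -0.090 over 16 genes, with 15 lower and 1 higher in high glucose, where 53.0% of all measured genes were lower. With median centring, where 72.7% of all measured genes were lower, the median was -0.15. The second probes of Ifnar1 and Nlrc5 alone gave a median of 0.11, from opposite ratios of -0.11 and 0.33. That of Nlrc5 was dim, with 38.1 in high and 32.1 in normal glucose. Of the 2 genes past 1.2-fold, both lower, Rsad2, an antiviral protein, had 54.3 in high and 121 in normal glucose (ratio -1.08). It rests on 1 dim probe, in the range below 100 where the spot SD of the ratio is 0.20. Irf1, an activator of Psmb9 added after its values were seen, had 4575 in high and 5102 in normal glucose, a ratio of -0.077. Any relation of these genes to the immunoproteasome was not tested.

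**Figure D5:**
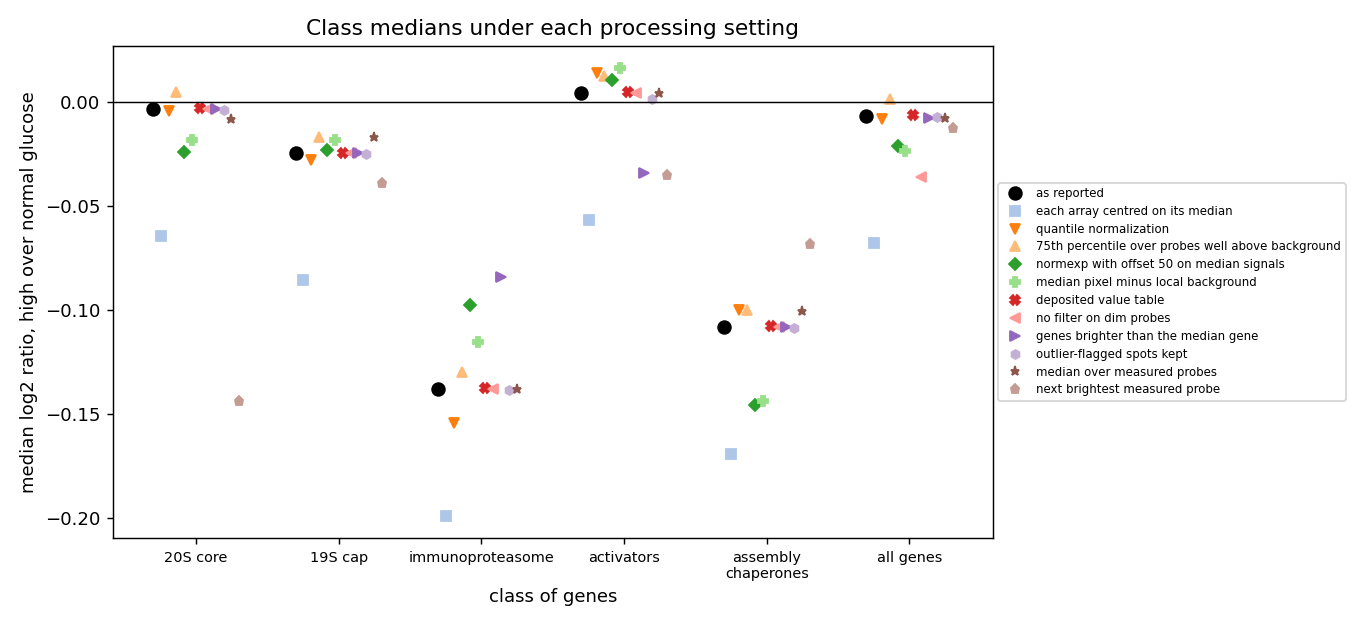
Median log2 ratio of high over normal glucose (vertical axis) for each class of proteasome genes and for all measured genes, 1 symbol per processing setting. The immunoproteasome, assembly chaperone and 19S cap medians lie below 0 under every setting shown, and that of all genes under 11 of 12. The 20S core and activators lie on both sides of 0. Centring each array on its median lowers all medians by 0.061.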

How the data were processed

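Each sample is a pool of RNA from 3 samples on 1 array. The deposited signals are intensity values from Feature Extraction 11.5.1.1 on a mouse design built on mm9, per the file headers. In the submitters' processing notes the version is 9.3.2.1, and which applies is not settled here. The processed signal is background-subtracted and detrended within an array, per the file headers, and not scaled between arrays. Other deposited columns are 0 or 1 spot flags. The value table deposited by the authors repeats this intensity (55249 of 55249 single-spot probes within a relative 0.0001).

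The 3671 control spots and 315 outlier-flagged spots were left out, 1 of the 67 member spots among them. Log2 signals were averaged over the spots of a probe less the 75th percentile of all 55663 probes on that array. Probes were named through RefSeq accessions without versions (27502 matched, GRCm38.p6). The brightest probe stood for a gene. It counted as measured when at least 0.5 of its spots were well above background on both arrays. Differences were counted at 1.2-fold, with no test, since each group has 1 array; this number of arrays limits what can be resolved. Scaling, choice of probe, 1.2-fold counts and medians were tested on simulated probe levels. The other steps were not tested in this way. The files hold median, not mean, spot signals, so the normexp alternative (limma 3.58.1, offset 50) used those. Other alternatives were other scalings, signals, filters and probe choices.

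The members, classes and lists were chosen with earlier results of these data known. Described in full were all members past 1.2-fold, Psmb5 to Psmb10, Psme1 to Psme4 and the highest and lowest of each class; in each list, up to 4 genes past 1.2-fold or else the 2 largest. Other genes named were chosen after their values were seen. Motifs were also chosen then. Some genes and motifs that these rules name are not reported here. Python 3.11.15, numpy 2.4.6, pandas 2.3.3 and R 4.3.3 were used.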

Additional observations from a re-analysis of the deposited data

How the results depend on the processing

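Over 11 alternatives, 392 of 458 member ratios moved by less than the median spot SD of 0.045 and 66 by more, and 0 members had reached 1.2-fold to begin with. Of 45 members, 25 were below 0 and 4 (Psmc6, Psmd13, Psmd3, Psme4) above 0 in all settings that gave them a value. The shares of all measured genes that did so were not counted. With each array centred on its median, the median log2 ratio was -0.091 for all members, -0.064 for the 20S core, -0.086 for the 19S cap, -0.20 for the immunoproteasome, -0.057 for the activators and -0.17 for the assembly chaperones, and 1189 genes were at least 1.2-fold lower, against 709 higher. The split of all 1.2-fold calls was then 37.4% higher, in place of 55.4%; it was 44.5% with median pixels and 65.8% once genes below the median brightness were left out. The next brightest probe gave a core median of -0.14, from Psma4 and Psmb5 alone. Among the brighter genes Psmb10 alone was left of the immunoproteasome, with -0.084, and -0.073 against its counterpart. Median pixels put 1 member, Psme4, at least 1.2-fold higher (0.27 on the log2 scale). Without a filter on dim probes 1 member, Psma8, was at least 1.2-fold lower, from signals at background. Counts of all genes at least 1.2-fold higher and lower, 966 and 778, became 545 and 484 with normexp, 2299 and 2035 without the dim filter, 146 and 76 among the brighter genes (7087 tested) and 259 and 258 with the next brightest probe (3631 tested). Normexp on mean signals was not run, as the files hold only median signals. No paired analysis was possible because each group has 1 sample, and no replicate could be left out. Dim probes limit Psmb8, Psmb9 and Psme4, where the spot SD is 0.089. Beyond these constructions, the cause was not tested.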

Other observations

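Some genes carry a name close to that of a proteasome subunit without being one. Psmc3ip, a partner of meiotic recombinases, had a signal of 330.3 in high and 329.4 in normal glucose, a log2 ratio of 0.084. Psme3ip1, a partner of the nuclear PA28 form, had 3562 in high and 3978 in normal glucose, a ratio of -0.079. Psmf1, the inhibitor PI31, had 641 in high and 744 in normal glucose, a ratio of -0.14, from 1 probe.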
